A study of Mus musculus with 22 samples.

Results

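The regions described here are the centromere-proximal ends of the mouse autosomes. They were defined as the part of each of chromosomes 1 to 19 that lies below 13 Mb in the mouse genome build mm9, in which assembled sequence begins near 3 Mb, so that each window holds about 10 Mb. The 11 deposited lists of lamina-associated domains (LADs) hold 83451 intervals. Of these, 6816 begin inside the 19 windows and 73127 lie on the rest of the same autosomes. Joining across gaps of less than 25 kb and keeping only what was then longer than 100 kb as LADs left between 173 and 203 LADs per list in the windows.

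LADs are long stretches of chromatin that meet the nuclear lamina, the filament layer under the inner nuclear membrane, and most of their genes are silent. Mouse chromosomes are acrocentric: the centromere sits at one end, where blocks of repeated satellite DNA precede the first assembled sequence. These satellite blocks gather in chromocenters, dense heterochromatin bodies that often lie at the nuclear periphery or around nucleoli.

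LADs were mapped by DamID, in which the bacterial adenine methyltransferase Dam is fused to lamin B1 and marks the DNA that it meets in living cells, with unfused Dam as the control for accessibility. The cells were primary mouse embryonic fibroblasts (MEFs) of strain C57bl/6, isolated at stage e13.5 and kept for no more than 5 passages. The 22 libraries form 11 pairs and each pair gave 1 list. All cells carried the Dam virus. The 3 WT lists came from untreated MEFs of embryos 1.5, 1.8 and x17. The shAC lists (embryos 1.5 and x17) came from MEFs that were infected with a hairpin virus against lamin A/C and selected with puromycin, given the Dam virus 4 days after infection and harvested 48 h later. The drug lists (embryos 1.8 and x17 for each drug) came from MEFs that were given BIX01294, DZNep or TSA for 18 to 24 h, then the Dam virus, and were harvested at 60 h. BIX01294 inhibits the histone methyltransferase G9a, DZNep lowers histone methylation, including that made by EZH2, and TSA (trichostatin A) inhibits histone deacetylases. WT cells had neither a control hairpin nor a stated drug vehicle. The lists give positions only, so the depth behind each list is unknown and its part in the precision cannot be given. The labels do not say whether libraries of one embryo name came from separate cultures, and p-values measure the spread between these lists only.

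LADs covered 65.6% ± 3.66 of the windows in WT MEFs (SD, n = 3). The values were 61.9% for embryo 1.5, 69.2% for embryo 1.8 and 65.7% for embryo x17. On the rest of the same chromosomes the 3 lists gave 56.6%, 61.8% and 58.6%, in the same order. The windows were thus more covered than the rest in 3 of 3 WT lists, by 6.60 ± 1.13 percentage points (two-sided exact permutation of signs, p = 0.25, the smallest that 3 lists allow). Over all 11 lists the difference ranged from 5.30 to 8.25 points with a mean of 6.83 ± 0.971, and it was positive in 11 of 11 lists (two-sided exact permutation of signs, 2048 patterns, p = 0.000977). These 11 lists come from 3 embryos and are not fully independent.

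The excess was smaller in the outer part of the windows than in the inner part. The first 5 Mb of the windows were 60.6% ± 3.76 covered in WT and the second 5 Mb 70.6% ± 3.67. The second stretch exceeded the first in 11 of 11 lists, by 8.58 ± 2.10 points (exact permutation p = 0.000977). With the window set at 3 to 8 Mb, the difference from the rest was 1.09 points in WT and 2.0 points over all 11 lists (exact permutation p = 0.00391). An exact permutation p of 0.000977 would need all 11 lists to agree in sign, so here not every list was above its rest. The next 10 Mb, from 13 to 23 Mb, were more covered than the windows in 11 of 11 lists. That stretch was 70.8% ± 1.47 covered in WT, and the difference of the windows from it was -5.03 ± 1.29 points over all lists (exact permutation p = 0.000977), or -2.10 points without chromosome 15 (exact permutation p = 0.000977). The last 10 Mb of each chromosome, at the far end from the centromere, were 56.3% ± 2.60 covered in WT. The windows exceeded them in 11 of 11 lists, by 9.46 ± 2.14 points (exact permutation p = 0.000977). These 4 comparisons form one family and the Benjamini-Hochberg adjusted value of each is 0.000977 over 11 lists. With the 3 WT lists alone the exact permutation p of each is 0.25. The comparisons with the next stretch, with the far end and between the first and second 5 Mb were added after the profile had been seen.

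**Figure D1:**
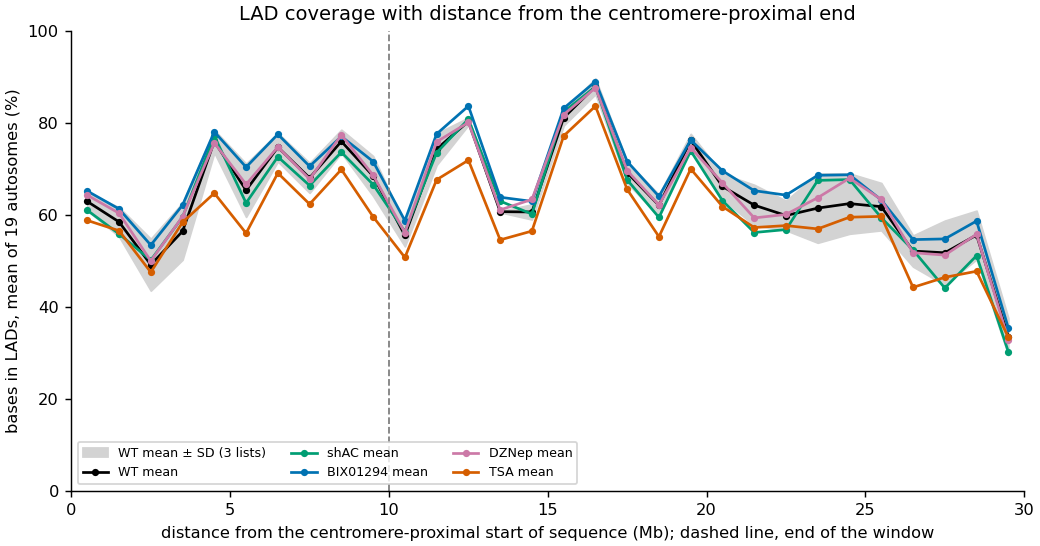
Mean LAD coverage of 19 autosomes (y axis, percent of bases) in 1 Mb bins against the distance from the centromere-proximal start of sequence (x axis, Mb), with 1 line per group and the WT mean ± SD over 3 lists in grey. WT coverage is 49.2% in the bin from 2 to 3 Mb and 76.0% in the bin from 4 to 5 Mb, and the highest bin, at 88.0%, lies past the dashed line that ends the window.

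In bins of 1 Mb, WT coverage was 63.0% ± 1.97 in the first bin, 49.2% ± 5.64 in the third and 76.0% ± 2.45 in the fifth. The fifth bin was almost fully covered, at 90% or more, on 8 of 19 chromosomes and the third on 5. The third bin was at 10% or less on 5 chromosomes and the fifth on 1.

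Windows of different chromosomes were unlike each other. Mean WT coverage ran from 36.9% on chromosome 19 to 89.6% on chromosome 9, with a median of 66.6% and an SD of 15.1 over 19 windows. The 211 other full 10 Mb tiles of the autosomes ran from 17.5% to 99.6% in WT, with a median of 60.0% and an SD of 17.9 over tiles, a wider range than that of the windows.

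Windows on 14 chromosomes were more covered in WT than the rest of their chromosome and those on 5 were less covered. On 9 chromosomes (1, 3, 6, 7, 9, 11, 13, 14 and 16) all 3 WT windows lay above all 3 WT rests, and on 4 chromosomes (12, 15, 17 and 19) all 3 lay below. How many of all 230 full tiles lie above or below their rest in these ways was not counted, so no share stands beside these numbers. Windows of 10 chromosomes exceeded the rest in all 11 lists and windows of 3 chromosomes (12, 15 and 19) were below it in all 11. The sign differed among lists on 6. By WT mean the window was the most covered full 10 Mb tile of its own chromosome on 2 (7 and 9) and the least covered on 1 (19). Each chromosome must have 1 tile of each kind, so 19 of the 230 tiles are the most covered. The 9 longest chromosomes, numbers 1 to 8 and 10, all had a more covered window, and of the 10 shortest 5 did. Across the 19 chromosomes, length and WT window coverage had a Pearson r of 0.58 and a Spearman rho of 0.53, given as a description since chromosomes of one list are not replicates.

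**Figure D2:**
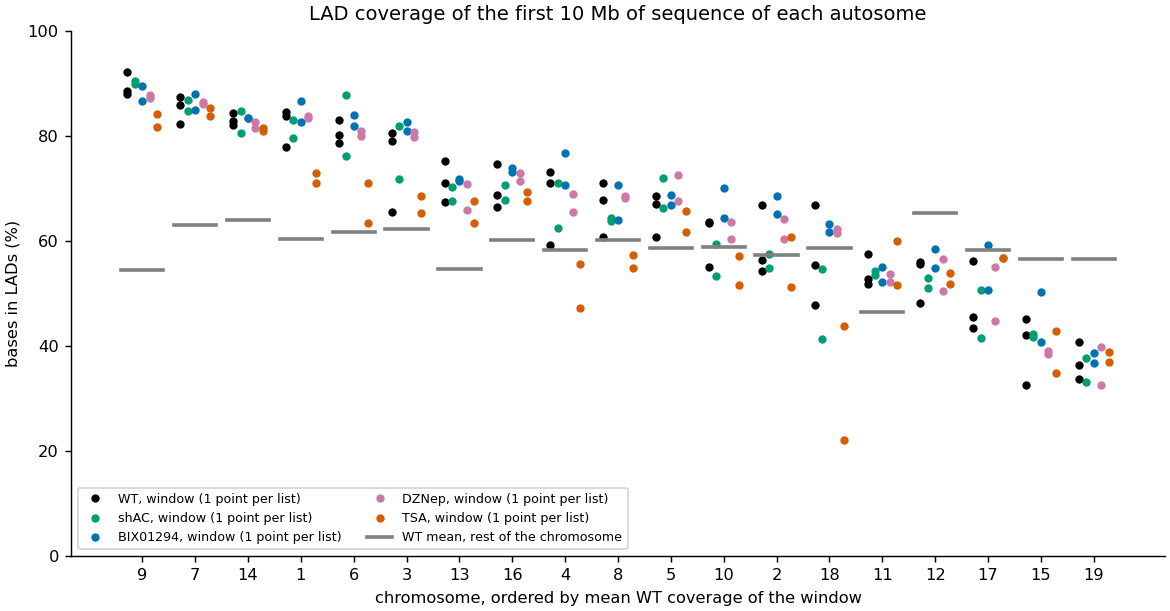
LAD coverage of the window of each autosome (y axis, percent of bases), 1 point per list and 1 colour per group, with chromosomes ordered by mean WT coverage and a grey bar at the WT mean of the rest of the chromosome. Windows run from 89.6% on chromosome 9 to 36.9% on chromosome 19 in WT, the TSA points of chromosomes 4 and 6 stand below the other lists, and the lowest point of all, at 22.1%, is TSA embryo x17 on chromosome 18.

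Chromosomes 9, 7 and 14 had the most covered windows. On chromosome 9 the WT values were 88.5% (embryo 1.5), 88.0% (embryo 1.8) and 92.2% (embryo x17), against 54.4% ± 2.99 on its rest, the widest gap of any chromosome at 35.2 points. The shAC lists gave 89.9% and 90.5%, the BIX01294 lists 86.8% and 89.6%, the DZNep lists 87.9% and 87.3%, and the TSA lists 81.8% and 84.3% (embryo x17 last in each pair). Both TSA lists were below the 3 WT lists. Both DZNep lists were below them too, though DZNep embryo 1.8 lay only just under the lowest WT list. The shAC and BIX01294 lists overlapped with WT. In the GRCm38.p6 annotation, used for order only, the genes nearest to this centromere begin with Alkbh8, Cwf19l2 and Gucy1a2 and go on to Gria4, which encodes a glutamate receptor subunit, and to the inflammatory caspases Casp1 and Casp4. Whether any of them lies in a LAD of these mm9 lists was not determined.

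On chromosome 7 the WT values were 82.3%, 85.9% and 87.4%. They were 84.7% and 87.0% for shAC, 85.0% and 88.1% for BIX01294, 86.1% and 86.5% for DZNep, and 85.4% and 83.9% for TSA. No treatment separated from WT on this chromosome. On chromosome 14 the WT values were 82.9%, 84.5% and 82.1%. shAC gave 84.8% and 80.6%, BIX01294 83.5% and 83.5%, DZNep 82.6% and 81.6%, and TSA 81.1% and 81.5%. This was the steadiest window, with a range of 4.16 points over the 11 lists, followed by chromosome 7 with 5.81. The first genes of chromosome 14 in GRCm38.p6 are predicted genes such as Gm2888 and Gm2897, and those of chromosome 7 include Nlrp12, an innate immune regulator, and Myadm.

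Chromosomes 19, 15 and 17 had the least covered windows. On chromosome 19 the WT values were 33.7%, 40.7% and 36.4%, against 56.6% ± 4.38 on its rest. The shAC lists gave 37.7% and 33.2%, BIX01294 38.6% and 36.7%, DZNep 32.5% and 39.7%, and TSA 38.7% and 36.9%, so every treatment overlapped with WT. The GRCm38.p6 genes nearest to this centromere are Ighmbp2, Mrpl21 (a mitochondrial ribosomal protein), Cpt1a (fatty acid import into mitochondria), Tesmin, Gal, Ppp6r3 and Lrp5 (a Wnt co-receptor). On chromosome 15 the WT values were 32.6%, 45.2% and 42.1%. For shAC they were 42.2% and 41.6%. BIX01294 gave 40.8% and 50.3%, DZNep 38.4% and 39.1%, and TSA 42.9% and 34.8%, again overlapping with WT. Its first GRCm38.p6 genes include Selenop (a selenium transport protein) and Ghr (the growth hormone receptor). On chromosome 17 the WT values were 43.5%, 56.2% and 45.5%. The shAC lists gave 50.6% and 41.5%, BIX01294 50.6% and 59.2%, and DZNep 44.8% and 55.1%, while both TSA lists, at 56.8%, were just above the highest WT list. Arid1b, a chromatin remodeller subunit, and Scaf8 are among its first genes.

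The remaining windows lay between these. Mean WT coverage was 82.1% on chromosome 1, 80.7% on 6, 75.1% on 3 and 71.3% on 13. It was 70.0% on chromosome 16, 67.9% on 4, 66.6% on 8 and 65.4% on 5. It was 60.7% on chromosome 10, 59.2% on 2, 56.7% on 18, 54.0% on 11 and 53.3% on 12. Most neighbours in this order do not differ beyond their spread, since the SD over the 3 WT lists was between 1.22 (chromosome 14) and 9.61 points (chromosome 18). Embryo 1.8 had the highest WT value on 12 of the 19 windows and embryo 1.5 the lowest on 13. The window of chromosome 18 varied most, over 44.8 points among the 11 lists, and that of chromosome 4 next, over 29.5 points.

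LADs of the windows were about as long as elsewhere. The median was 363 ± 4.97 kb in WT windows and 365 ± 30.3 kb in the other full 10 Mb tiles, cut in the same way. LADs of 1 Mb and more held 58.5% ± 1.29 of LAD bases in the windows and 58.1% ± 1.69 in the other tiles. A window held 9.79 ± 0.712 LADs and another tile 8.61 ± 0.742. The higher coverage of the windows thus went with more LADs per 10 Mb at a like median length, and these counts were not tested.

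The lists agreed closely on the windows. The Jaccard index, the shared bases of a pair of lists divided by the bases in either, was 0.851 ± 0.0165 for the 3 WT pairs in the windows and 0.857 ± 0.00322 on the rest. Bases called in all 11 lists made up 93.5 Mb, or 49.2% of the windows, against 43.8% of the rest. Bases called in no list made up 38.9 Mb, or 20.5%, against 28.3% of the rest. In WT alone, 108.9 Mb (57.3%) were called in all 3 lists, 17.3 Mb in 2, 12.8 Mb in 1 and 51.1 Mb in none.

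The longest stretches called in all 3 WT lists were on chromosomes 7, 14 and 6. That on chromosome 7 covered 5743 kb (mm9 chr7:7256948-13000000) and runs on past the end of the window. That on chromosome 14 covered 5612 kb (chr14:3000962-8612620) and began at the first bases of the assembled chromosome. That on chromosome 6 covered 3453 kb (chr6:8326934-11780022). The longest unbroken pieces called in all 11 lists lie within these stretches and covered 4927 kb on chromosome 14, 3793 kb on chromosome 7 and 3075 kb on chromosome 6. In the TSA lists 97.3% (embryo 1.8) and 89.1% (embryo x17) of the chromosome 6 stretch was called. In every other list 98.6% or more of it was called.

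The longest stretches called in no list were on chromosomes 19, 15 and 13. They covered 3090 kb (chr19:3324870-6414797), 1868 kb (chr15:10426803-12294532) and 1709 kb (chr13:4931809-6640994). That on chromosome 19 begins 0.325 Mb into the window, behind a short LAD next to the start of sequence. Stretches in no list of 1 Mb or more numbered 7, with 11.7 Mb in all, against 23 stretches of that size in all 11 lists, with 41.9 Mb.

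A deposited interval opened every window. On all 19 autosomes, in all 11 lists, the first interval began within 100 kb of 3 Mb, the latest 86.1 kb past it. LADs over 100 kb began within 10 kb of 3 Mb on 11 chromosomes in all 11 lists, on 6 chromosomes in some of them, and on 2 chromosomes (2 and 19) in none. The first LAD of a chromosome, measured along its whole length, ranged from a WT mean of 160 kb on chromosome 5 to 5621 kb on chromosome 14. On chromosome 11 the first LAD began more than 3.5 Mb into the window in 9 of 11 lists, the exceptions being WT embryo 1.8 and TSA embryo 1.8.

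The end of the first LAD was sharply placed on some chromosomes. Over all 11 lists the ends lay within 15.3 kb of each other on chromosome 12 and within 15.7 kb on chromosome 13. On chromosome 1 the first LAD was 1757 to 1849 kb long in all lists. On chromosome 14 it was 5590 to 5636 kb long in 10 lists and 4932 kb in DZNep embryo x17. On other chromosomes the WT lists themselves differed. In WT the first LAD was 289 to 1003 kb long on chromosome 6, 262 to 1281 kb on chromosome 10 and 470 to 1333 kb on chromosome 18.

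The first LAD of chromosome 9 was long in WT and shAC and shorter in all drug lists. It measured 3152, 3173 and 3232 kb in the WT lists and 3163 kb in both shAC lists. It measured 2333 and 2340 kb in BIX01294, 614 and 1283 kb in DZNep, and 403 and 334 kb in TSA (embryo 1.8 first). Little of the stretch lay outside LADs: of the 3152 kb that all WT lists call as 1 piece (chr9:3009622-6161351), 44.4 and 28.9 kb lay outside LADs in BIX01294, 36.4 and 30.2 kb in DZNep, and 114 and 178 kb in TSA. The BIX01294 and DZNep lists still called it in 2 pieces and the TSA lists in 4. The lengths outside LADs in the BIX01294 and DZNep lists are not far above the 25 kb below which intervals were joined, and those in the TSA lists are well above it. On chromosome 17 the first LAD was 511 and 538 kb long in the shAC lists, against 1402 to 1424 kb in WT, and 58.2 and 146 kb of the 1398 kb stretch (chr17:3581029-4978642) lay outside LADs. In TSA embryo 1.8 it was shorter still, at 113 kb, and lay at the start of sequence, with all of the 1398 kb stretch called behind it. It was 1407 kb long in TSA embryo x17 and 1427 to 1453 kb in the BIX01294 and DZNep lists. Chromosomes 9 and 17 were chosen here after their values had been seen. On both, the WT lists were close to each other in the first LAD, unlike on chromosomes 6, 10, 11 and 18.

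**Figure D3:**
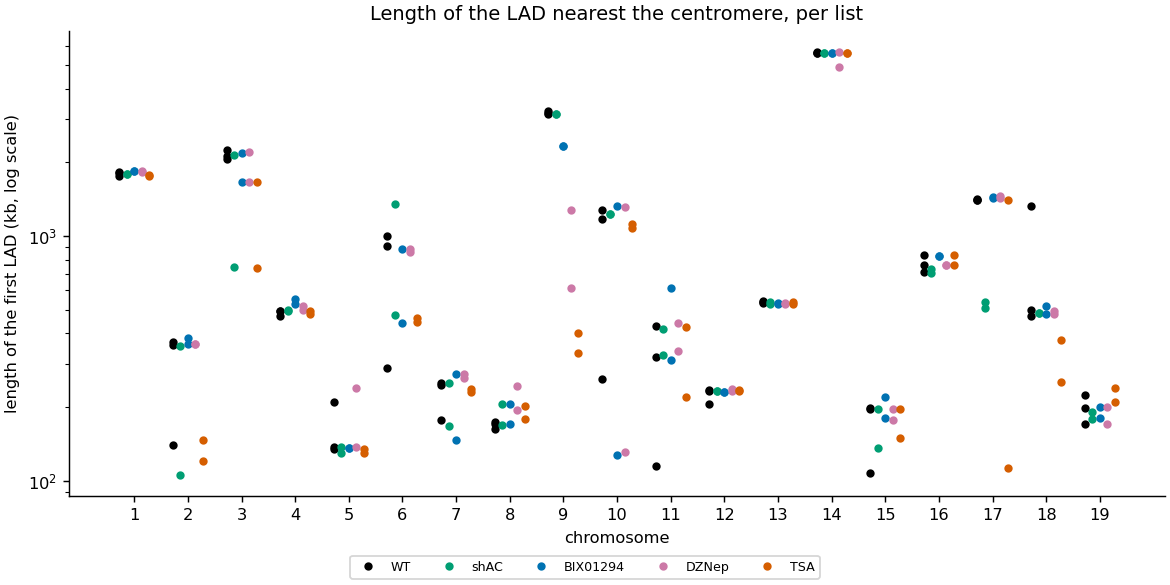
Length of the LAD nearest the centromere (y axis, kb, log scale) on each autosome (x axis), 1 point per list and 1 colour per group. The points of chromosomes 1, 13 and 14 nearly coincide, those of chromosome 9 run from 3232 kb in WT down to 334 kb in TSA, and on chromosome 17 the shAC points lie at 511 and 538 kb and 1 TSA point at 113 kb.

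Each treatment was compared with the 3 WT lists by exact permutation over the 10 splits of 5 lists, in which p cannot go below 0.1, and adjusted over the 4 treatments by the Benjamini-Hochberg method. All 4 comparisons share the WT lists. None of the differences in coverage passed a threshold of 0.05, which this design cannot reach.

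TSA gave the lowest window coverage. It was 61.5% for embryo 1.8 and 59.1% for embryo x17, both below all 3 WT lists, with a mean of 60.3% ± 1.72 (SD, n = 2). The difference of the means from WT was -5.27 points (two-sided exact permutation p = 0.2, adjusted 0.8). On the rest of the chromosomes it was -4.44 points. The change in the windows minus that in the rest was -0.83 points (exact permutation p = 0.4, adjusted 0.8). Between lists of the same embryo it was -1.48 points in both embryos, and no p below 0.5 is possible with 2 pairs. Without chromosome 18 this difference was 0.15 points over all lists.

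Bases called in all 3 WT lists and neither TSA list made up 4.76 Mb of the windows, the largest value of the 10 splits (one-sided exact permutation p = 0.1, adjusted 0.4). The next split gave 1.72 Mb. They were 4.37% of the bases in all 3 WT lists in the windows and 4.60% on the rest. Such bases formed 90 intervals, of which 17 were 100 kb or longer, and occurred on all 19 windows. By length, 54.3% lay at the edge of a stretch called in all 3 WT lists, 33.4% was a whole such stretch and 12.4% lay inside one. On the rest of the chromosomes these shares were 54.3%, 35.2% and 10.5%. Bases in both TSA lists and no WT list made up 1.40 Mb (exact permutation p = 0.3, adjusted 0.533). They were 2.74% of the bases in no WT list in the windows and 1.37% on the rest, a difference that was not tested.

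Windows differed in their TSA values. On 7 of 19 windows (chromosomes 1, 4, 6, 8, 9, 14 and 18), or 36.8%, both TSA lists were below all 3 WT lists, where 41.7% of all 230 full 10 Mb tiles of the autosomes were. On 1 window (chromosome 17) both were above all 3 WT lists, where 3.04% of tiles were. The share of lower windows was thus near that of all tiles. Without WT embryo 1.5, which had the lowest WT coverage, 12 windows (63.2%) and 60.0% of tiles were lower. Without WT embryo 1.8 or TSA embryo x17, 2 windows were higher, beside 12.2% and 14.8% of tiles. In each embryo taken by itself, TSA was lower than WT in both pairs on 14 windows, where 73% of all tiles were, and higher in both on 1, where 8.26% were.

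Chromosome 18 had the largest difference. The WT windows were covered to 55.5%, 66.9% and 47.8%, and the TSA windows to 43.8% (embryo 1.8) and 22.1% (embryo x17). The difference of the means from WT was -23.8 points, against -5.75 points on the rest of chromosome 18. The other lists lay between 41.3% (shAC embryo x17) and 63.3% (BIX01294 embryo x17). Chromosome 4 came next, with 59.2%, 71.1% and 73.3% in WT and 47.3% and 55.7% in TSA, and then chromosome 6, with 83.1%, 80.3% and 78.7% in WT and 71.1% and 63.4% in TSA. On both, the TSA lists were below every other list. The longest interval in all 3 WT lists and neither TSA list was on chromosome 18 (chr18:10197482-10579366, 382 kb). It was called in full in shAC embryo 1.5 and not at all in shAC embryo x17, and 64.0% to 99.9% of it was called in the BIX01294 and DZNep lists.

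The reverse was seen on chromosome 17. The window was 8.37 points more covered in TSA than in WT while the difference on the rest of the chromosome was -2.12 points. Of the 1.40 Mb called in both TSA lists and no WT list, 0.780 Mb lay on this window. The longest such interval covered 452 kb (chr17:6478151-6930219). It was not particular to TSA, since it was called in full in BIX01294 embryo x17, and to 99.9% in DZNep embryo x17 and 93.9% in shAC embryo 1.5, and not at all in the other shAC, BIX01294 and DZNep lists.

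The TSA difference from WT was -3.40 points in the first 5 Mb (exact permutation p = 0.4) and -7.13 points in the second 5 Mb (exact permutation p = 0.2). Whether these 2 values differ was not tested. In both TSA lists the second 5 Mb was still the more covered, by 6.19 ± 1.87 points, against 9.92 ± 1.33 in WT.

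**Figure D4:**
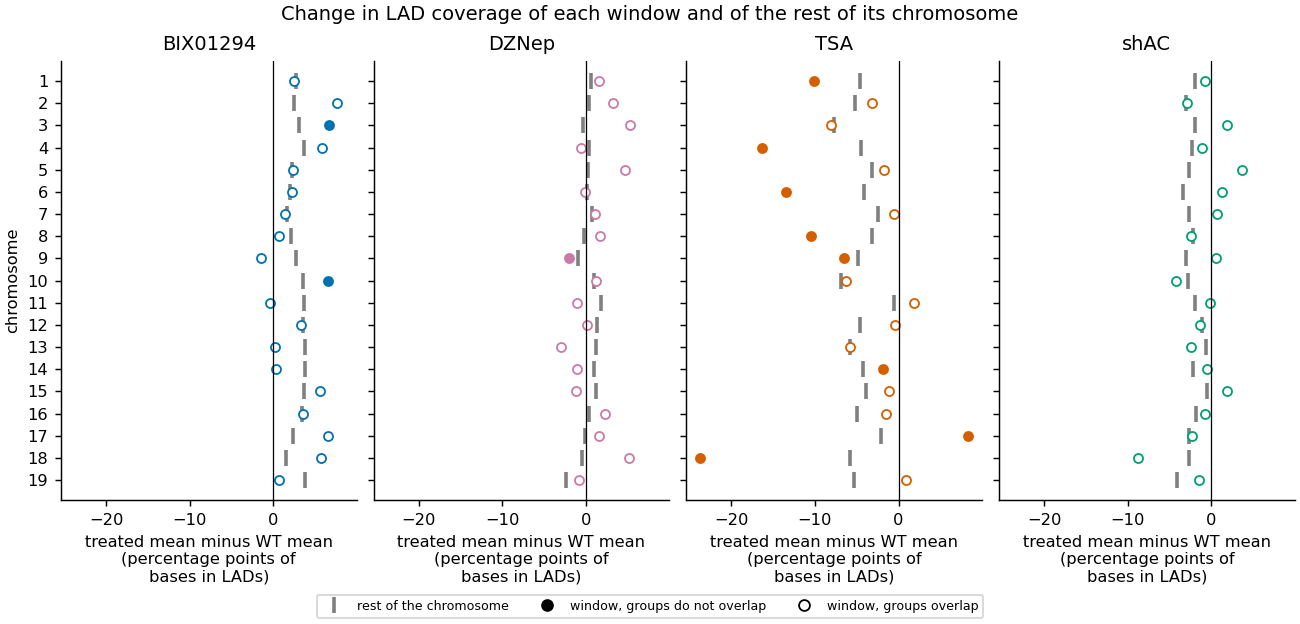
Treated mean minus WT mean of LAD coverage (x axis, percentage points) for the window of each autosome (rows), with filled points where both treated lists lie outside the range of the 3 WT lists and grey bars for the rest of the same chromosome. TSA windows spread from -23.8 points on chromosome 18 to 8.37 on chromosome 17 around rests between -7.66 and -0.54, while the other treatments stay nearer to 0.

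BIX01294 gave the most covered windows, at 67.1% (embryo 1.8) and 70.4% (embryo x17), a mean of 68.8% ± 2.31. The first value lies inside the WT range and the second above it. The mean was 3.17 points above WT (exact permutation p = 0.4, adjusted 0.8), and the rest was 2.90 points above. The window difference was 1.31 points without WT embryo 1.5 and 1.54 without BIX01294 embryo x17. It was 4.81 without BIX01294 embryo 1.8 and 4.97 without WT embryo 1.8. For each drug, leaving out WT embryo 1.5 and pairing lists of the same embryo are the same calculation, so their values are equal. The change in the windows minus that in the rest was 0.28 points (exact permutation p = 0.8, adjusted 0.8). It turned to -0.37 points without WT embryo 1.5 and between lists of the same embryo, and to -0.26 points without BIX01294 embryo x17. Both BIX01294 lists were above all 3 WT lists on 2 of 19 windows (chromosomes 3 and 10), where 20% of all tiles were, and below them on 0, where 1.74% were. The higher windows numbered 9 (47.4%, beside 59.6% of tiles) without WT embryo 1.8, and 11 (57.9%, beside 58.7%) without BIX01294 embryo 1.8. Without BIX01294 embryo x17 the other list was below WT on 1 window (chromosome 9) and 10.4% of tiles, and above on 2 windows and 26.5%. The window of chromosome 2 had the largest difference in means, 7.61 points above WT at 65.1% and 68.5%, which overlaps with WT values of 56.4%, 66.9% and 54.3%. That of chromosome 9 was the lowest against WT, at -1.41 points. Bases in all 3 WT and neither BIX01294 list made up 0.217 Mb (one-sided exact permutation p = 0.9), with no interval of 100 kb or longer. Bases in both BIX01294 and no WT list made up 0.797 Mb (exact permutation p = 0.4). The longest intervals were 43.9 kb (chr2:12956076-13000000, at the window's end) and 99.6 kb (chr2:6671684-6771244). The first was called in no treated list other than shAC embryo 1.5, and the second in no list other than those of BIX01294.

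DZNep windows were covered to 65.5% (embryo 1.8) and 67.6% (embryo x17), both inside the WT range. The mean was 0.95 points above WT (exact permutation p = 0.8, adjusted 0.8), and the change in the windows minus that in the rest was 0.56 points (exact permutation p = 0.7, adjusted 0.8). Both signs turned, to -0.91 and -0.09 points, without WT embryo 1.5 and between lists of the same embryo, and to -0.11 and -0.20 points without DZNep embryo x17. Both DZNep lists were below all 3 WT lists on 1 of 19 windows (chromosome 9), where 5.65% of tiles were, and above them on 0, where 3.04% were. With 1 list left out, 1 to 3 windows were lower and 0 to 4 higher. There were 3 lower windows without WT embryo 1.5 (21.7% of tiles), WT embryo x17 (12.2%) or DZNep embryo x17 (17.4%), 2 without DZNep embryo 1.8 (9.57%), and 4 higher windows without WT embryo 1.8 (30.4%). There were 3 higher windows (15.8%) without WT embryo x17, where 6.96% of tiles were higher, and 3 without DZNep embryo 1.8, where 17.4% were. By means the window of chromosome 3 was highest against WT, by 5.23 points, and that of chromosome 13 lowest, at 65.9% and 70.8% against 71.1%, 75.3% and 67.5% in WT. Bases in all 3 WT and neither DZNep list made up 0.523 Mb (one-sided exact permutation p = 0.7), the longest interval being 120 kb (chr3:10001134-10120816). That interval was also at 0% in shAC embryo x17 and TSA embryo x17 and at 1.73% in BIX01294 embryo x17. Bases in both DZNep and no WT list made up 0.591 Mb (exact permutation p = 0.6), the longest, just over 100 kb, lying on chromosome 7 (chr7:4469723-4569771), where BIX01294 embryo x17 called it in full as well.

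The shAC windows were covered to 66.8% (embryo 1.5) and 62.3% (embryo x17), both inside the WT range, with a mean 64.6% ± 3.20. The difference from WT was -1.0 points (exact permutation p = 0.8, adjusted 0.8), and on the rest it was -2.28 points. The window difference turned to 0.79 points without WT embryo 1.8, which is the same calculation as pairing lists of the same embryo. It was 1.25 points without shAC embryo x17 and -3.26 points without shAC embryo 1.5. The change in the windows minus that in the rest was 1.27 points (exact permutation p = 0.3, adjusted 0.8), or 0.62 points without WT embryo 1.5. No window had both shAC lists below all 3 WT lists, where 19.1% of all tiles did, or above them, where 3.04% did. Without WT embryo 1.5, both shAC lists were below on 5 windows (26.3%) and on 40.0% of tiles, and without shAC embryo 1.5 the other was below on 6 windows and on 55.2% of tiles. With shAC embryo x17 left out, the remaining list was above WT on 4 windows (21.1%) and 13.9% of tiles, and below on 0 windows and 20.4%. With WT embryo 1.8 left out, both were above on 1 window and 8.70% of tiles, and below on 0 windows and 19.1%. With WT embryo x17 left out, both were above on 1 window and 8.26% of tiles, and below on 2 windows (10.5%) and 29.6%. The window of chromosome 18 was the lowest against WT by means, at 54.7% and 41.3%, and that of chromosome 5 the highest, at 71.97% and 66.3% against 60.7%, 67.1% and 68.5% in WT. Bases in all 3 WT and neither shAC list made up 0.783 Mb (one-sided exact permutation p = 0.4), the longest interval being 152 kb (chr12:8008604-8160707). In that interval no TSA or DZNep list called more than 43.1% of the bases, and BIX01294 embryo x17 called all of them. Bases in both shAC and no WT list made up 0.506 Mb (exact permutation p = 0.4), the longest interval being 64.5 kb (chr3:6317016-6381534), of which DZNep embryo x17 called 89.998% and TSA embryo 1.8 71.3%.

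Most WT LAD bases of the windows were called after every treatment. Of the bases in all 3 WT lists, 98.7% ± 0.957 were called in BIX01294, 98.4% ± 0.0419 in DZNep, 97.3% ± 1.94 in shAC and 92.0% ± 0.0507 in TSA (SD, n = 2 lists each). On the rest these shares were 98.8%, 98.2%, 96.1% and 91.8%. Of the LAD bases of a single WT list, another WT list called 92.1% ± 4.04 over 6 ordered pairs, and a TSA list called 85.6% ± 2.38 over 6 pairs.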

How the data were processed

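DamID was done in 22 samples, paired as 11 lists of Dam-lamin B1 over Dam-only. Per the labels, build mm9 was used. The authors made each deposited list of LAD positions (start and end, with no score) by segmenting the ratio of the pair with LADetector. The aligner is not given in the sources used here. Groups, embryos and replicate numbers were taken from the labels. Starts were counted from 1. Lists were cut at 13 Mb, then gaps of less than 25 kb were closed and only LADs longer than 100 kb stayed. The rest ran to the last base called in any list. Values were compared over lists by exact permutation with Benjamini-Hochberg adjustment. Windows were also set beside 230 full 10 Mb tiles. All 19 windows are named. Beyond these, the 3 most and 3 least covered, the 3 longest stretches in all WT lists and in none of 11, and per treatment the longest interval and the window with the largest difference in each direction are given. The members, lists and tests were chosen with earlier results of these data known.

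A shared embryo name in the labels was read as 1 animal. Deviations from the group means over tiles correlated between such lists with r of 0.159 (shAC) to 0.488 (BIX01294). Results were recomputed without joining or filtering, with a minimum length of 200 kb or of 500 kb, with gaps of up to 50 kb closed, with joining before cutting, with windows of 3 to 8 Mb, of 3 to 23 Mb or from the first called base, with equal chromosome weight, over same-embryo pairs, and without each list or chromosome. Python 3.11.15, numpy 2.4.6 and matplotlib 3.10.9 were used. Interval arithmetic was tested on simulated data: on 200 sets of 5 lists it differed 0 times from counting single bases, and of 4.88 Mb in 9 of 173 LADs removed from 2 simulated lists, 4.89 Mb were found. Genes were ordered by GRCm38.p6 from RefSeq without coordinates. The signal tracks were not used here.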

Additional observations from a re-analysis of the deposited data

Results flagged for a closer look

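Embryos went opposite ways under 3 treatments when each treated list was set against the WT list of its own embryo. For BIX01294 the window coverage differed from WT by -2.05 points in embryo 1.8 and by 4.67 points in embryo x17. For DZNep the values were -3.70 points in embryo 1.8 and 1.89 points in embryo x17. For shAC they were 4.98 points in embryo 1.5 and -3.40 points in embryo x17. With 1 list per embryo and treatment the difference between embryos was not tested. The labels give embryos 1.5 and 1.8 as replicate 1 and embryo x17 as replicate 2 in every group, so embryo and replicate number cannot be told apart. The WT list of embryo 1.8, at 69.2%, is the highest WT list and that of embryo 1.5, at 61.9%, the lowest, and their part in these differences was not tested. The rest of the chromosomes showed the same signs in each case: -1.02 and 4.40 points for BIX01294, -2.73 and 1.10 points for DZNep, and 2.02 and -3.75 points for shAC. Under TSA both embryos were lower in the windows, with differences of -7.64 points (embryo 1.8) and -6.62 points (embryo x17). No group has 4 or more lists, so single lists could not be examined as outliers.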

How the results depend on the processing

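Of 667 recomputed values, 632 counted as the same, 17 moved and 18 changed sign. Differences counted as the same when they kept their direction, and levels when they stayed within the spread of replicates. Counts of windows or chromosomes were judged by a fold limit instead. Lengths called only in WT or only in treated lists cannot turn negative, so all of them count as the same by construction. The comparisons of each treatment with WT cannot pass 0.05. The 4 comparisons within lists, over 11 lists, kept their sign and an exact permutation p of 0.00391 or less under the processing and window settings tried for each and without each list or chromosome, all added after seeing the data. WT coverage of the windows was 61.7% with a minimum length of 200 kb, 51.2% with 500 kb and 60.6% in windows of 3 to 8 Mb. The mean WT excess over the rest was positive throughout, from 1.09 points (3 to 8 Mb) to 10.4 points (3 to 23 Mb). With 3 to 8 Mb it was not positive in every WT list (exact permutation p = 0.5, against 0.25 where all 3 agree in sign). The WT Jaccard index was 0.812 with 500 kb and 0.875 in windows of 3 to 23 Mb, and 0.835 to 0.868 with 1 list left out. The median LAD length followed the settings by construction: 62.4 kb as deposited, 531 kb and 998 kb with minimum lengths of 200 and 500 kb, 497 kb joined under 50 kb, 357 kb when cut after joining, 347 kb in 3 to 8 Mb and 403 kb in 3 to 23 Mb.

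The small treatment differences changed sign. BIX01294 change minus that in the rest was -0.44 points with 500 kb, -0.19 in 3 to 23 Mb and -0.37 to 0.81 with 1 list left out. DZNep minus WT was -0.37 points with 500 kb and -0.91 to 2.75 with 1 list left out, and its change minus that in the rest -0.20 to 1.32. TSA change minus that in the rest was 1.17 points in 3 to 8 Mb, 0.15 without chromosome 18 and -1.48 to -0.45 with 1 list left out. shAC minus WT was 0.14 points in 3 to 8 Mb and -3.26 to 1.25 with 1 list left out, and its change minus that in the rest stayed positive, from 0.47 (500 kb) to 2.41 points (3 to 8 Mb). In the replicate block of same-embryo pairs these became -0.37 (BIX01294 change minus rest), -0.91 points (DZNep minus WT), -0.0904 (DZNep change minus rest) and 0.79 (shAC minus WT), and TSA minus WT was -7.13 points. The block changed no other sign. Its coverage differences equal those without WT embryo 1.5 (drugs) or WT embryo 1.8 (shAC) by construction, so they are not a separate check. TSA minus WT was negative under every alternative, from -7.13 to -3.37 points. Windows with both TSA lists below all WT lists numbered 7 to 12 with 1 list left out, where 42.2% to 62.6% of tiles were, and 7 to 9 under 4 processing settings added after seeing the data, where 41.7% to 46.5% were. The cause of these shifts was not tested. The signs turned without WT embryo 1.5 or the embryo x17 list of the drug (BIX01294 and DZNep) and without WT embryo 1.8 or shAC embryo x17 (shAC minus WT). The length in all WT and neither TSA list was the largest of 10 splits under all 8 processing and window settings (2.15 to 8.78 Mb), and 6.01 to 8.76 Mb with 1 list left out, where fewer lists make it longer by construction. The same lengths with 1 list left out were 0.595 to 2.11 Mb for BIX01294, 1.04 to 1.77 Mb for DZNep and 1.28 to 4.47 Mb for shAC, and those in both treated and no WT list 1.10 to 4.42 Mb (BIX01294), 0.770 to 2.62 Mb (DZNep), 1.51 to 4.53 Mb (TSA) and 0.642 to 2.57 Mb (shAC). Depth is unknown, and a weakly called LAD looks like a strong one in these lists.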

Other observations

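The X chromosome lies outside the rule that set the windows, and its first 10 Mb behaved unlike most autosomal windows in these lists. In WT, LADs covered 42.4% (embryo 1.5), 61.3% (embryo 1.8) and 65.0% (embryo x17) of it, against 75.2%, 82.5% and 83.0% of the rest of the chromosome, in the same order. The TSA lists gave 72.1% and 73.9%, above every other list, where most autosomal windows were lower in TSA than in WT. The shAC lists gave 48.6% and 59.7%, the BIX01294 lists 58.2% and 62.0%, and the DZNep lists 57.1% and 62.0%. The sex of the embryos is not among the labels used here.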
